A study of Homo sapiens with 92 samples.

Results

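KCTD4, GTF2F2 and TPT1 are neighbours on human chromosome 13, and their rows were taken by gene name from each count file, 3 genes of the 48905 kept. They were chosen by their dTAG against DMSO differences in converted reads at every time and in each cell type, so those values are given here as a description, with no test. KCTD4 (ENSG00000180332.6) lies on the minus strand at chr13:45192853-45194717 in hg38. It sits within GTF2F2 (ENSG00000188342.11), which runs on the plus strand at chr13:45120515-45284909. TPT1 (ENSG00000133112.16) lies on the minus strand at chr13:45333471-45341370, and its nearer, 3′ end lies 48562 bases past the end of GTF2F2. GTF2F2 and TPT1 had reads in all 92 libraries, and KCTD4 had reads in 90 of them.

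KCTD4 belongs to the potassium channel tetramerisation domain family, whose members share a BTB domain; several act as adaptors of CUL3 ubiquitin ligases or as auxiliary subunits of the GABA-B receptor, and the role of KCTD4 itself is little described. GTF2F2 encodes RAP30, the smaller subunit of the general transcription factor TFIIF, which binds RNA polymerase II and helps bring it to promoters. TPT1 encodes the translationally controlled tumour protein, an abundant protein of growing cells whose messenger carries a 5′ terminal oligopyrimidine tract, the sequence through which mTOR signalling controls translation. Cohesin, loaded by NIPBL, extrudes loops of DNA and can bring distant regulatory elements and promoters together. A short gene on the opposite strand within a longer gene, as KCTD4 is here, has its own promoter.

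The study degraded NIPBL and measured new RNA by SLAM-seq, in which RNA made during a pulse of 4-thiouridine (4sU) is recognised by T-to-C conversions in the reads. The RPE-1 libraries came from a single clone, NIPBL-D7, of the immortalised retinal pigment epithelial line hTERT RPE-1, with the genotype mGreenLantern-P2A-FKBP12(F36V)-NIPBL. DMSO cells carry the same degron allele as cells given dTAGV-1 (dTAG), the compound that directs the degron to ubiquitin ligation. RPE-1 cells were held with 2 mM thymidine, arrested in mitosis with 20 ng/ml nocodazole for 120 min, collected by shake-off and released, and all received 4sU at 100 µM.

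In the mitosis series dTAG or DMSO was present during the arrest and after release. It has 3 to 4 libraries a group at 0, 30, 60, 90 and 120 min and 2 a group at 4, 6 and 8 h, all with 15 min of 4sU. In the release series dTAG or DMSO was present only after release, with 3 libraries a group at 30, 60, 90 and 120 min. Each series also has 3 dTAG and 3 DMSO libraries at 120 min with 120 min of 4sU. Cardiomyocytes and neurons, titled as WTC11 cells and, per the growth protocol, derived from iNgn2 pluripotent stem cells, have 2 dTAG and 2 DMSO libraries per cell type after 4 h of drug, with 120 min of 4sU. Another label field names RPE-1 as the line of these libraries, and the titles were followed.

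Marker genes bear on the cell types. All 8 cardiomyocyte markers were highest in the libraries titled cardiomyocytes, and 6 of 8 neuron markers were highest in those titled neurons. The exceptions were TUBB3, which averaged 0.527 converted CPM in neurons and 0.552 in RPE-1, and SYT1, which averaged 307 in neurons and 759 in RPE-1 over dTAG and DMSO libraries. The 8 neuron markers summed to 1830 to 1910 CPM in DMSO neurons, against 899 to 2169 in DMSO RPE-1 of the release series and 294 to 430 in DMSO RPE-1 of the mitosis series. That sum therefore did not separate neurons from RPE-1 of the release series, whereas MAP2 (1056 CPM in neurons, 58.6 in RPE-1) and DCX (134 in neurons, 0.114 in RPE-1) were higher in neurons by their means. Converted reads per library ran from 0.419 to 35.4 M and all reads from 10.7 to 114 M. The third DMSO library at 120 min of the mitosis series was unlike the rest of its group, since 10 genes took 13.5% of its converted reads, against 3.44% to 3.75% in the other 3 DMSO libraries of that time. No source says that replicates are separate cultures, so the p-values below measure only the spread between these libraries. The sources used here do not give the strand setting of the counting, so reads of KCTD4 and of GTF2F2 RNA across the same bases could in principle be mixed. TPT1 has processed pseudogenes, and reads shared with them may be counted for either.

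The 250 bases before each gene's RefSeq start (GRCh38.p14) are shown because the genes, although neighbours, differ in the kind of promoter they have. Capitals mark matches to the motifs searched on both strands, which were the TATA box (TATAAA), the CCAAT box (CCAAT), the GC box (GGGCGG), the cyclic AMP response half-site (TGACGT), the TEAD motif (CATTCC), the E-box (CACGTG), the NRF1 motif and the AP-1 motif. The shares of all 35116 promoter windows that hold them were 10.7% for the TATA box, 32.0% for the CCAAT box, 42.6% for the GC box, 7.1% for the half-site, 11.9% for TEAD, 6.34% for the E-box, 5.07% for NRF1 and 6.57% for AP-1.
KCTD4, chr13:45201046-45201295, minus strand: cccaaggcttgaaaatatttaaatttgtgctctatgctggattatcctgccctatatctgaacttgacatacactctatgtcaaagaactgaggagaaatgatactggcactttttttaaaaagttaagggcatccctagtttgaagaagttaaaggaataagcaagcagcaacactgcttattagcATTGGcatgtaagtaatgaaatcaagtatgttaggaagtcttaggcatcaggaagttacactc
GTF2F2, chr13:45120260-45120509, plus strand: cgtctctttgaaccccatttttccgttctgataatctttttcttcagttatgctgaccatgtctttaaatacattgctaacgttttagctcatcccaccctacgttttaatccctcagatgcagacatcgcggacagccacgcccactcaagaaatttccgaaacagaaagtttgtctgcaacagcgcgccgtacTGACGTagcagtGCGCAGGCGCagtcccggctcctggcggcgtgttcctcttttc
TPT1, chr13:45341184-45341433, minus strand: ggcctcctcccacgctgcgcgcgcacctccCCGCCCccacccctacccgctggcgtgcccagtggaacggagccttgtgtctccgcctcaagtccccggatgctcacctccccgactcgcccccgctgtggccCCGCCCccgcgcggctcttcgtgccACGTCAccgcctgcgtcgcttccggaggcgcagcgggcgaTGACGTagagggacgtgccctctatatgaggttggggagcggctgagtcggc

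The KCTD4 window holds 0 CpG dinucleotides and 36.8% G and C, and its capitals are a CCAAT box on the other strand that begins 63 bases before the start. RefSeq places the 5′ end of KCTD4 6328 bases upstream of the 5′ end that the files give. The GTF2F2 window holds 17 CpG dinucleotides, with an observed-over-expected ratio of 1.18, higher than 98.9% of all windows. Its capitals are a cyclic AMP response half-site and an NRF1 motif, which do not overlap. The TPT1 window holds 30 CpG dinucleotides at a ratio of 0.931, with 2 GC boxes and 2 cyclic AMP response half-sites. The median ratio over all windows was 0.558. None of the 3 windows held a match to the TATA box, the E-box, the TEAD motif or the AP-1 motif. The RNA of TPT1 starts with a run of 7 pyrimidines, in capitals here among its first 20 bases.
TPT1, first bases of the RNA as DNA: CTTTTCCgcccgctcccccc
A start of C followed by 4 further pyrimidines, as TPT1 has, was found for 4.07% of RefSeq starts, and neither KCTD4 nor GTF2F2 has it.

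KCTD4 had more converted reads, by mean CPM, in dTAG than in DMSO cells at each time from 30 min of the mitosis series onward, and the gap was widest at 6 and 8 h. At 0 min, in arrested cells, it had 1.45, 1.32, 1.05 and 0 converted CPM (read counts over library size, TMM-scaled) in dTAG libraries and 1.44, 0.997 and 0.902 in DMSO libraries. These rest on 0 to 4 converted reads a library, and the arms overlapped, with a log2 difference of -0.18 ± 0.72 (SE). All reads of KCTD4 at 0 min already averaged 1.43 ± 0.46 CPM in dTAG libraries (SD, n = 4), against 0.746 ± 0.080 in DMSO libraries (n = 3). At 30 min the converted values were 1.66, 1.58 and 1.31 CPM in dTAG libraries, against 1.21, 0.776 and 0 in DMSO libraries. At 60 min they were 4.15, 5.58, 6.58 and 4.81 CPM in dTAG libraries, against 1.82, 4.25, 4.06 and 2.17 in DMSO libraries. The arms did not overlap at 30 min, and at 60 min only the lowest dTAG library fell within the DMSO range. At 90 min KCTD4 had 8.09, 3.56, 5.49 and 2.54 CPM in dTAG libraries, against 1.60, 0.423, 1.76 and 0.741 in DMSO libraries. At 120 min it had 4.69, 5.90 and 4.40 CPM in dTAG libraries, against 1.96, 3.16, 3.30 and 1.79 in DMSO libraries. Every dTAG library lay above every DMSO library at 90 and at 120 min.

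On the log2 scale dTAG exceeded DMSO by 1.03 ± 0.75 (30 min), 0.78 ± 0.42 (60 min), 2.08 ± 0.53 (90 min) and 1.01 ± 0.50 (120 min; SE). Their mean was 1.23 ± 0.28, a 2.34-fold difference. Of all genes tested, 2.98% were higher without overlap at 30 min, 2.49% at 90 min and 4.35% at 120 min. KCTD4 was counted in few reads at these times, at most 18 converted reads in a library. Its counts of all reads were larger and ran the same way, with 4.47, 3.26, 3.45 and 2.64 CPM in dTAG libraries at 90 min, against 1.83, 1.80, 1.52 and 1.14 in DMSO libraries.

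**Figure D1:**
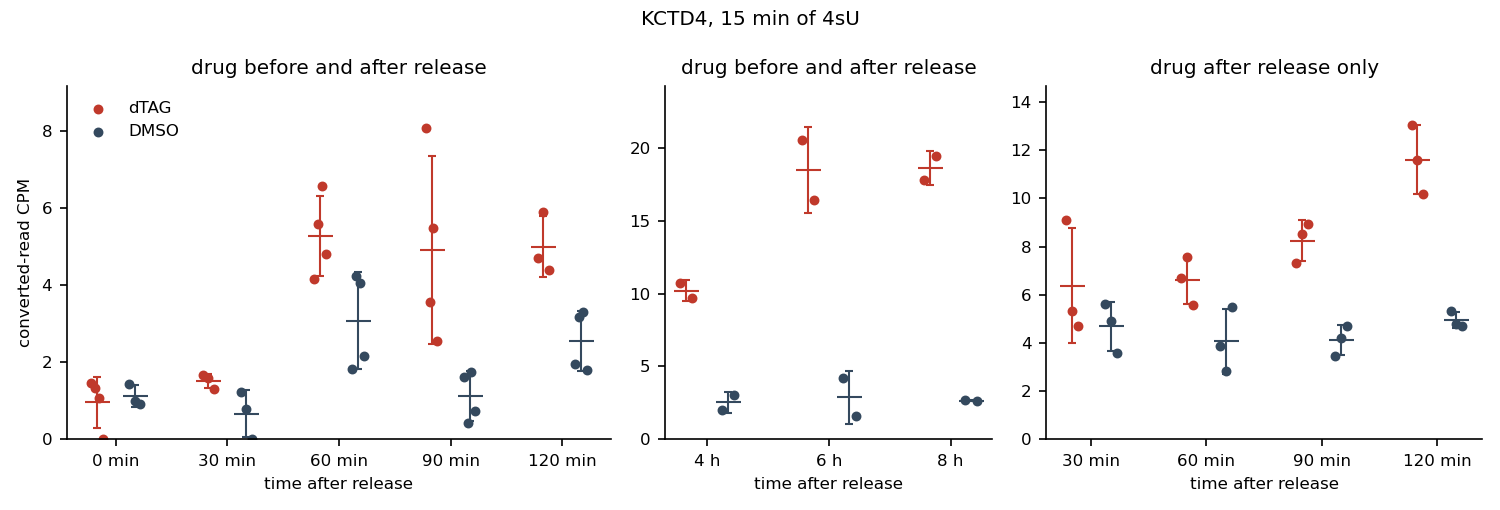
Converted-read CPM of KCTD4 (TMM-scaled within each panel) by time after release, dTAG left of DMSO, for libraries with 15 min of 4sU. Points are libraries, and horizontal marks with bars are the mean ± SD. At 6 and 8 h the dTAG libraries lie between 16.4 and 20.6 CPM and the DMSO libraries between 1.55 and 4.17 CPM.

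Later in the mitosis series the difference was larger and the reads more numerous. At 4 h KCTD4 had 10.7 and 9.73 CPM in dTAG libraries, against 1.99 and 3.04 in DMSO libraries. At 6 h it had 20.6 and 16.4 CPM in dTAG libraries, against 4.17 and 1.55 in DMSO libraries. At 8 h it had 17.8 and 19.5 CPM in dTAG libraries, against 2.68 and 2.61 in DMSO libraries. All 6 dTAG libraries lay above all 6 DMSO libraries, and the share of all genes with this pattern over the pooled times is not given here. The log2 differences were 2.05 ± 0.38 at 4 h, 2.72 ± 0.35 at 6 h and 2.81 ± 0.32 at 8 h, with a mean of 2.53 ± 0.20, or 5.76-fold. With 2 libraries an arm, 21.5%, 24% and 25.8% of all genes were higher without overlap at these times. All reads of KCTD4, old and new, were also more abundant, at 26.4 and 30.9 CPM in dTAG libraries at 8 h, against 3.70 and 3.84 in DMSO libraries. The share of its reads with a conversion at 8 h averaged 5.43% ± 0.78 in dTAG libraries and 6.06% ± 0.97 in DMSO libraries (SD, n = 2 each). Relative to all reads of the gene, the log2 difference over 4 to 8 h was 0.094. In arrested cells at 0 min, group means of 2.00% to 2.56% of GTF2F2 and TPT1 reads already carried a conversion. How far the gap in converted reads of KCTD4 reflects new RNA was not tested.

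In the release series, where the drug began only at release, KCTD4 was again higher in dTAG libraries, and the difference was larger at each later time. At 30 min it had 9.10, 5.32 and 4.71 CPM in dTAG libraries, against 5.60, 4.89 and 3.56 in DMSO libraries, and the arms overlapped. The lowest of these dTAG libraries held only 2 converted reads of KCTD4, at a depth of 0.419 M. At 60 min it had 6.70, 7.59 and 5.58 CPM in dTAG libraries, against 3.88, 2.83 and 5.49 in DMSO libraries. At 90 min it had 7.31, 8.50 and 8.95 CPM in dTAG libraries, against 3.47, 4.19 and 4.72 in DMSO libraries. At 120 min it had 13.1, 11.6 and 10.2 CPM in dTAG libraries, against 5.32, 4.79 and 4.70 in DMSO libraries. From 60 min on the arms did not overlap, which at 60, 90 and 120 min was so for 3.71%, 5.87% and 6.2% of all genes in this direction. The log2 differences were 0.53 ± 0.32, 0.79 ± 0.32, 1.02 ± 0.28 and 1.21 ± 0.26 from 30 to 120 min, and their mean was 0.89 ± 0.15.

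The libraries with 120 min of 4sU hold many more converted reads of KCTD4. In the mitosis series it had 5.92, 6.75 and 4.10 CPM in dTAG libraries, against 2.80, 3.45 and 3.01 in DMSO libraries. In the release series it had 24.5, 17.3 and 19.1 CPM in dTAG libraries, against 9.37, 5.91 and 6.21 in DMSO libraries. Neither pair of arms overlapped, as for 6.64% and 5.75% of all genes in this direction. The log2 differences were 0.87 ± 0.27 in the mitosis series and 1.51 ± 0.24 in the release series. Both dTAG and DMSO libraries of the release series lay above those of the mitosis series on the scale of this common fit. The drug was added at different times in the 2 series, and whether they were grown side by side is not stated.

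GTF2F2, the gene that surrounds KCTD4, showed a smaller gap, present at 4 to 8 h. At 4 h it had 342 and 298 converted CPM in dTAG libraries, against 229 and 240 in DMSO libraries. At 6 h it had 303 and 294 CPM in dTAG libraries, against 224 and 250 in DMSO libraries. At 8 h it had 347 and 331 CPM in dTAG libraries, against 198 and 220 in DMSO libraries. The arms did not overlap at any of the 3 times, as for 21.5%, 24% and 25.8% of all genes in this direction. The log2 differences were 0.45 ± 0.12, 0.33 ± 0.12 and 0.70 ± 0.12, with a mean of 0.49 ± 0.07, or 1.41-fold. All reads of GTF2F2 at 8 h were 193 and 189 CPM in dTAG libraries, against 121 and 129 in DMSO libraries.

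Before 4 h the arms of GTF2F2 overlapped at each time. In the mitosis series from 30 to 120 min its means were 114, 114, 181 and 169 CPM in dTAG libraries, against 124, 122, 163 and 154 in DMSO libraries. The mean log2 difference over these times was 0.01 ± 0.11. In the release series its mean was 250 CPM in dTAG libraries and 255 in DMSO libraries, a log2 difference of -0.03 ± 0.05, at times when KCTD4 differed by 0.89 ± 0.15. With 120 min of 4sU in the mitosis series the order was the other way round, at 139, 133 and 94.8 CPM in dTAG libraries and 153, 170 and 157 in DMSO libraries. The arms did not overlap, as for 9.32% of all genes in this direction, and the log2 difference was -0.39 ± 0.16. In the release series with 120 min of 4sU it was -0.15 ± 0.15, with overlapping arms.

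TPT1, which lies beyond the end of GTF2F2, had similar levels in both arms through the early times. Its mean log2 difference was -0.02 ± 0.09 from 30 to 120 min of the mitosis series and 0.04 ± 0.10 in the release series. At 4 h it had 226 and 234 CPM in dTAG libraries, against 210 and 220 in DMSO libraries. At 6 h it had 251 and 209 CPM in dTAG libraries, against 203 and 175 in DMSO libraries. At 8 h it had 169 and 178 CPM in dTAG libraries, against 169 and 171 in DMSO libraries. The arms stayed apart at 4 and 6 h, narrowly, as for 21.5% and 24% of all genes in this direction, and overlapped at 8 h. The mean over 4 to 8 h was 0.14 ± 0.07. With 120 min of 4sU the differences were 0.22 ± 0.15 in the mitosis series and 0.18 ± 0.15 in the release series, both with overlapping arms.

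**Figure D2:**
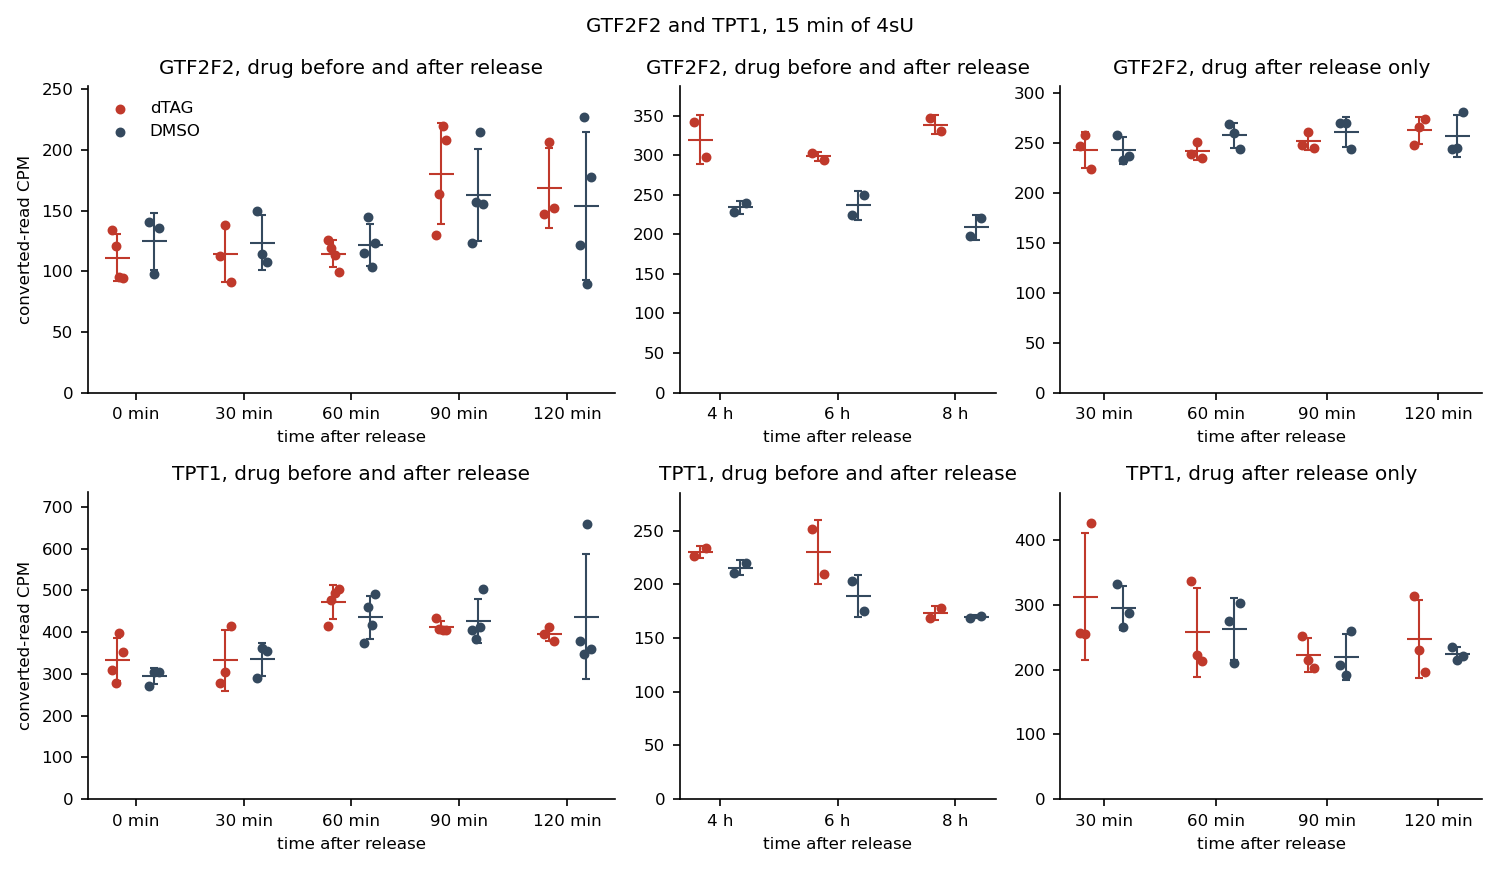
Converted-read CPM of GTF2F2 (upper panels) and TPT1 (lower panels) by time after release, dTAG left of DMSO, drawn as in the plot of KCTD4 with libraries as points and the mean ± SD. The arms of GTF2F2 stand apart at 4, 6 and 8 h, and TPT1 has a DMSO library at 660 CPM at 120 min of the mitosis series.

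**Figure D3:**
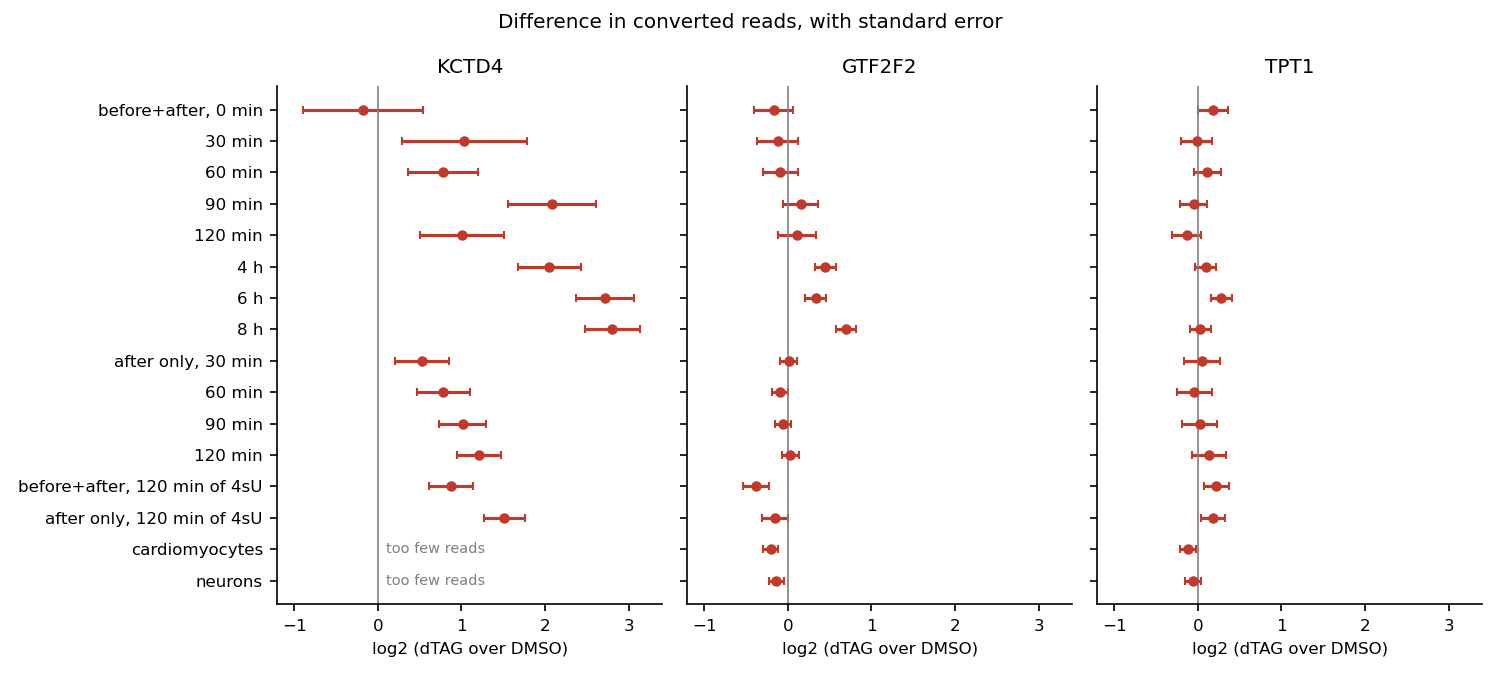
Log2 difference of dTAG over DMSO in converted reads, with its standard error, for each time, series and cell type. KCTD4 lies above 0 from 30 min on, GTF2F2 lies above 0 by 0.33 to 0.70 at 4 to 8 h, and TPT1 lies between -0.13 and 0.28. KCTD4 was too rare in cardiomyocytes and neurons for a fitted value.

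In cardiomyocytes KCTD4 was close to absent, with 1 and 4 converted reads in dTAG libraries and 5 and 7 in DMSO libraries. In neurons it had 0 converted reads in all 4 libraries. It did not pass the filter on low counts in the fit of these cells, so no drug difference was fitted. GTF2F2 had 130 and 141 CPM in dTAG cardiomyocytes, against 165 and 147 in DMSO cardiomyocytes. In neurons it had 115 and 114 CPM in dTAG libraries, against 127 and 125 in DMSO libraries. The arms did not overlap in either cell type, as for 20.4% and 23.3% of all genes in this direction. The log2 differences were -0.20 ± 0.09 and -0.14 ± 0.09. Markers of other cells moved with the drug in cardiomyocytes. The 4 fibroblast and smooth muscle markers summed to 219 to 221 CPM in dTAG libraries and 359 to 379 in DMSO libraries, and the 3 endothelial markers to 49.1 to 66.1 and 115 to 120 CPM. In neurons the cardiomyocyte markers summed to 23.4 to 29.8 CPM in dTAG libraries and 52.9 to 55.3 in DMSO libraries. Over both arms RYR2 alone averaged 34.9 CPM there, ACTN2 3.09 and the other cardiomyocyte markers at most 0.808. The RPE-1 markers in neurons summed to 115 to 124 CPM in dTAG and 155 to 171 in DMSO libraries, and the neuron markers to 1708 to 1760 and 1830 to 1910 CPM. The part of these shifts in the GTF2F2 differences was not tested, and in bulk samples fewer cells of a type and less RNA per cell cannot be told apart. TPT1 differed by -0.12 ± 0.10 in cardiomyocytes and by -0.06 ± 0.10 in neurons.

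Levels in DMSO cells were compared between cell types among libraries with 120 min of 4sU, a comparison that the choice of genes did not use. The RPE-1 cells had been released from mitotic arrest 120 min before, and no arrest is given for the derived cells, which are of another line by their titles. Cell type, line and cell-cycle state therefore cannot be told apart in the comparisons with RPE-1. KCTD4 was highest in RPE-1, near its limit in cardiomyocytes and not detected in neurons. In the common fit it had 0.443 and 0.708 CPM in cardiomyocytes, against 3.15, 3.86 and 3.36 in RPE-1 of the mitosis series and 10.4, 6.85 and 7.22 in RPE-1 of the release series. The 6 RPE-1 libraries all lay above both cardiomyocyte libraries, a pattern whose share over all genes is not given here. The log2 difference of cardiomyocytes over RPE-1 was -3.20 ± 0.39. In converted reads relative to all reads of the gene it was 0.36. In neurons 0 converted reads, against a floor of 3 counts over both libraries, put KCTD4 at least 19.3-fold lower than in RPE-1 of the mitosis series and at least 43.2-fold lower than in RPE-1 of the release series. Against cardiomyocytes, which held 12 converted reads in both libraries, the same floor gave at least 3.16-fold lower in neurons. KCTD4 passed the filter of the common fit only through its RPE-1 libraries, and failed it in the derived cells alone. No p-value is therefore given for these differences of KCTD4. Of all genes tested, 30.4% passed the test as lower in cardiomyocytes than in RPE-1, 32.9% as lower in neurons than in RPE-1 and 16.9% as lower in neurons than in cardiomyocytes. The median of all genes was itself shifted by 0.11 and 0.12 in the comparisons of cardiomyocytes and of neurons with RPE-1, and by 0.48 and 0.23 with library sizes taken from all reads. That scaling left 9903 genes higher and 4215 lower in cardiomyocytes than in RPE-1, against 8034 and 6489 with TMM, and 2487 higher and 4942 lower in neurons than in cardiomyocytes, against 3668 and 3616.

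Counts of the overlapping genes in neurons, where KCTD4 was not detected in DMSO libraries, were set side by side. The 2 DMSO neuron libraries had 5980 reads of GTF2F2 and 0 of KCTD4, counting converted and unconverted reads. If the GTF2F2 reads were spread evenly over its span of 164395 bases, 67.8 of them would lie in the 1865 bases of KCTD4. The 2 dTAG neuron libraries had 5346 reads of GTF2F2 and 2 of KCTD4. Reads need not be spread evenly over the gene, and the counting options are not given. How far reads of GTF2F2 enter the KCTD4 count was therefore not tested, in neurons or in RPE-1.

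GTF2F2 was lower in both derived cell types than in RPE-1, where cell type, line and cell-cycle state again cannot be told apart. It had 139 and 124 CPM in DMSO cardiomyocytes and 107 and 106 in DMSO neurons, against 173 to 284 over the 6 DMSO RPE-1 libraries. Cardiomyocytes had 0.618-fold the RPE-1 level (log2 difference -0.69 ± 0.14, edgeR adjusted p = 2.4e-04) and neurons 0.501-fold (adjusted p = 4.13e-06). With library sizes taken from all reads, the cardiomyocyte difference was -0.32, with an adjusted p of 0.108, and without the second replicate it was -0.58, with an adjusted p of 0.115. Neurons lay below cardiomyocytes by -0.30 ± 0.17 (adjusted p = 0.188). TPT1 had 138 and 150 CPM in neurons, against 130 to 313 over the RPE-1 libraries, a log2 difference of -0.50 ± 0.13 (adjusted p = 0.00219) although the libraries overlapped. Over all reads of TPT1 this difference was -0.09, with an adjusted p of 0.607, and without the first or the second replicate the adjusted p was 0.171 or 0.0729. Cardiomyocytes differed from RPE-1 in TPT1 by -0.28 ± 0.13 (adjusted p = 0.0618), and by 0.099 (adjusted p = 0.547) with library sizes from all reads. Pluripotency markers summed to 141 to 151 CPM in DMSO neurons and 90.5 to 101 CPM in DMSO cardiomyocytes, against at most 0.259 in DMSO RPE-1. LIN28A alone averaged 139 CPM in neurons and 94.9 in cardiomyocytes over dTAG and DMSO libraries. POU5F1, NANOG and DPPA4 averaged at most 3.11 CPM in either cell type. The part of these markers in the differences above was not tested.

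**Figure D4:**
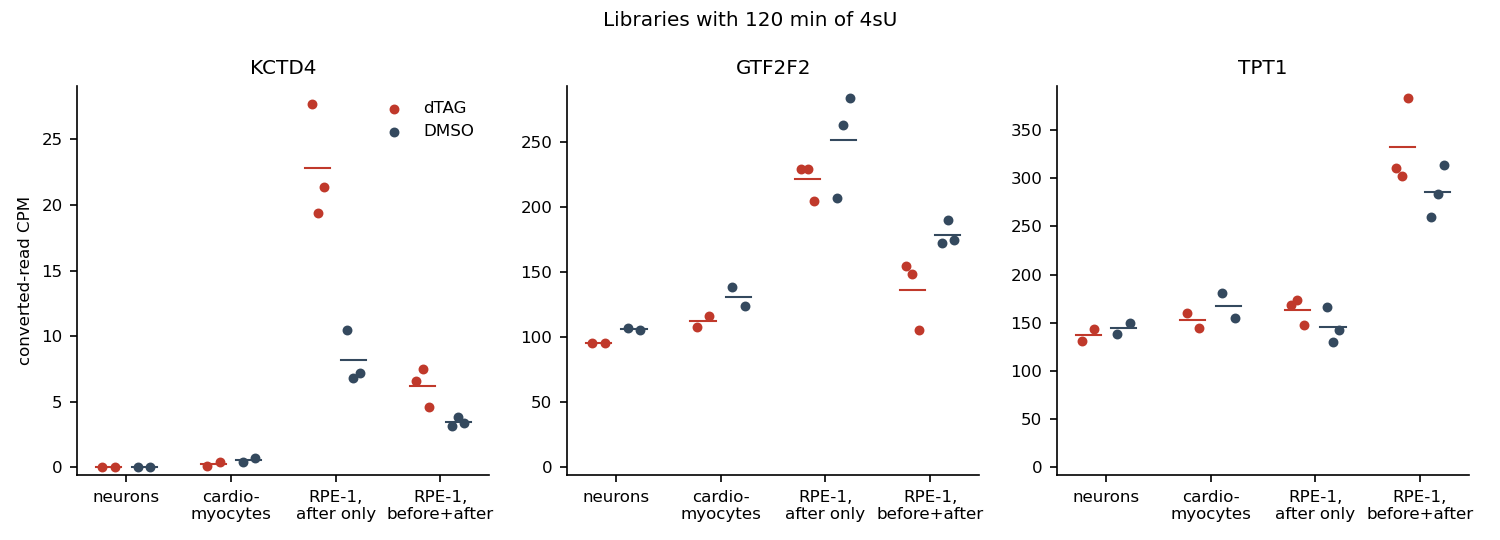
Converted-read CPM of KCTD4, GTF2F2 and TPT1 in the 20 libraries with 120 min of 4sU, scaled in 1 common fit, dTAG left of DMSO. Points are libraries and lines are means. KCTD4 is at 0 in all 4 neuron libraries and between 3.15 and 10.4 CPM in DMSO RPE-1.

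With TMM scaling TPT1 passed the test in DMSO cells leaving mitosis, while KCTD4 and GTF2F2 did not, and other scalings changed this. It had 373, 460, 418 and 492 CPM at 60 min, against 272, 305 and 305 at 0 min. The log2 rise at 60 min was 0.57 ± 0.18 (adjusted p = 0.0122), that at 90 min 0.54 ± 0.18 (adjusted p = 0.0243) and that at 120 min 0.56 ± 0.18 (adjusted p = 0.0173), at times when 22%, 14.3% and 14.7% of all genes rose. The share of rising genes depends on the scaling. With library sizes from all reads 6416, 4999 and 3926 of 14206 genes rose and 245, 481 and 868 fell at these times, against 3131, 2026 and 2082 that rose and 1972, 1419 and 1864 that fell with TMM. The median of all genes was then shifted by 0.60, 0.49 and 0.41, and TPT1 by 1.14, 1.01 and 0.93. The 120 min value rests on the third library, named above, which had 660 CPM of TPT1, against 347 to 380 in the other 3, and without it the rise was 0.24, with an adjusted p of 0.223. Without replicate 2 or replicate 4 of each time the adjusted p at 60 min was 0.124 or 0.2, and at 90 min it was 0.096, 0.114 and 0.31 without replicates 1, 2 and 4 in turn. Over all reads of TPT1 the 60 and 90 min rises were 0.21 (adjusted p = 0.361) and 0.29 (adjusted p = 0.263). The share of TPT1 reads with a conversion averaged 2.00% in arrested DMSO cells at 0 min. It averaged 3.79% at 60 min, 3.04% at 90 min and 2.40% at 120 min. How far the TPT1 rises reflect new RNA was not tested.

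KCTD4 in DMSO cells was at 1.82 to 4.25 CPM at 60 min, above the 0.902 to 1.44 CPM at 0 min. The difference of 1.32 ± 0.62 did not pass the test (adjusted p = 0.0904), and at 120 min it was 1.03 ± 0.67 (adjusted p = 0.277). Over all reads of the gene the same differences were 1.23 (adjusted p = 0.0246) and 1.27 (adjusted p = 0.0112). With library sizes from all reads the 60 min difference was 1.93 (adjusted p = 0.0121). GTF2F2 differed from 0 min by -0.04 ± 0.23 (60 min), 0.38 ± 0.23 (90 min) and 0.32 ± 0.23 (120 min), with adjusted p-values between 0.241 and 0.913. With library sizes from all reads GTF2F2 passed the test at 90 min (0.92, adjusted p = 0.0096) and 120 min (0.71, adjusted p = 0.0479). Relative to all reads of the gene it passed at 60 min with the sign turned (0.82, adjusted p = 0.00917), at 90 min (1.27, adjusted p = 4.33e-04) and at 120 min (1.11, adjusted p = 0.00324). In that setting 6238, 4021 and 2357 of 14206 genes rose at these times. The median of all genes was then shifted by 0.59, 0.37 and 0.29. At 8 h over 4 h in DMSO cells KCTD4 differed by 0.11 ± 0.43 (adjusted p = 0.9), GTF2F2 by -0.17 ± 0.12 (adjusted p = 0.408) and TPT1 by -0.34 ± 0.13 (adjusted p = 0.0822). In DMSO cells of the release series KCTD4 at 120 min differed from 30 min by 0.08 ± 0.30 (adjusted p = 0.936), GTF2F2 by 0.08 ± 0.10 (adjusted p = 0.701) and TPT1 by -0.40 ± 0.21 (adjusted p = 0.339). Both TPT1 differences turned sign with library sizes from all reads (0.25 at 8 over 4 h, adjusted p = 0.331, and 0.18 in the release series, adjusted p = 0.417) and relative to all reads of the gene (0.28, adjusted p = 0.108, and 0.36, adjusted p = 0.108). GTF2F2 at 8 over 4 h also turned, to 0.42 (adjusted p = 0.105) and 0.46 (adjusted p = 0.0335). In the latter setting 6283 of 14570 genes rose from 4 to 8 h, and the median of all genes was shifted by 0.49.

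The share of a gene's reads that carried a conversion differed among the 3 genes. With 120 min of 4sU, KCTD4 had 45.9% ± 4.60 converted reads in DMSO cells of the mitosis series (SD, n = 3), against 4.60% ± 1.05 with 15 min (n = 4). GTF2F2 had 36.2% ± 2.96 with 120 min, against 5.36% ± 1.57 with 15 min. TPT1 had 11.2%, 11.2% and 10.6% with 120 min, against 2.40% ± 0.15 with 15 min. With 120 min of 4sU the order was KCTD4, GTF2F2, TPT1 in this series, with no overlap between genes, and with 15 min the mean of GTF2F2 lay above that of KCTD4. In the release series the shares with 120 min were 44.3% ± 5.76 for KCTD4, 49.5% ± 6.74 for GTF2F2 and 8.60% ± 1.38 for TPT1, and the first pair overlapped. The longer pulse gave a higher share in every library for each gene. The exact two-sided permutation test of this reached the smallest p its sizes allow, 0.0571 in the mitosis series and 0.1 in the release series, and 0.1 when adjusted over the 6 tests. The reads of the 3 genes hold similar numbers of T, at 46.5, 51.1 and 45.9 T positions per read for KCTD4, GTF2F2 and TPT1.

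The calls among other genes within 1 Mb of KCTD4, measured between the lower-coordinate ends of the genes, were lower in dTAG cells. Of 36 further named genes there, 12 passed the filter at 4 to 8 h. Among these, 2 fell in dTAG cells and the other 10 did not pass the test, where 9.07% of all genes rose and 10.7% fell. The median log2 difference of the 12 was 0.01, as over all genes tested. TSC22D1, a leucine zipper protein first cloned as a TGF-beta-stimulated gene, had a lowest, median and highest value of 128, 138 and 220 CPM over 6 dTAG libraries. Over the 6 DMSO libraries these were 222, 278 and 315 CPM, so the arms did not overlap, though narrowly and with no share over all genes to compare. Its log2 difference was -0.84 ± 0.08 (adjusted p = 6.84e-07), and it also fell over 30 to 120 min of the mitosis series (-0.79 ± 0.10, adjusted p = 2.53e-06, where 0.746% of all genes fell). The gene fell too in the release series (-0.39 ± 0.08, adjusted p = 0.00477, where 1.62% fell) and with 120 min of 4sU in the mitosis series (-1.14 ± 0.14, adjusted p = 2.67e-04, where 2.05% fell). NUFIP1, a protein of small nucleolar ribonucleoprotein assembly, had 23.8, 33.2 and 39.8 CPM as lowest, median and highest in dTAG libraries, against 34.1, 43.5 and 49.3 in DMSO libraries. Its log2 difference was -0.41 ± 0.11 (adjusted p = 0.0156). TPT1-AS1, which starts within TPT1 on the opposite strand, differed by 0.10 ± 0.09 (adjusted p = 0.471). In cardiomyocytes 1 of 18 neighbours tested fell, LCP1, an actin-bundling protein (-0.74 ± 0.17, adjusted p = 0.035), where 3.65% of all genes fell. Markers of other cells moved with the drug there, as given above, and their part was not tested.

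**Figure D5:**
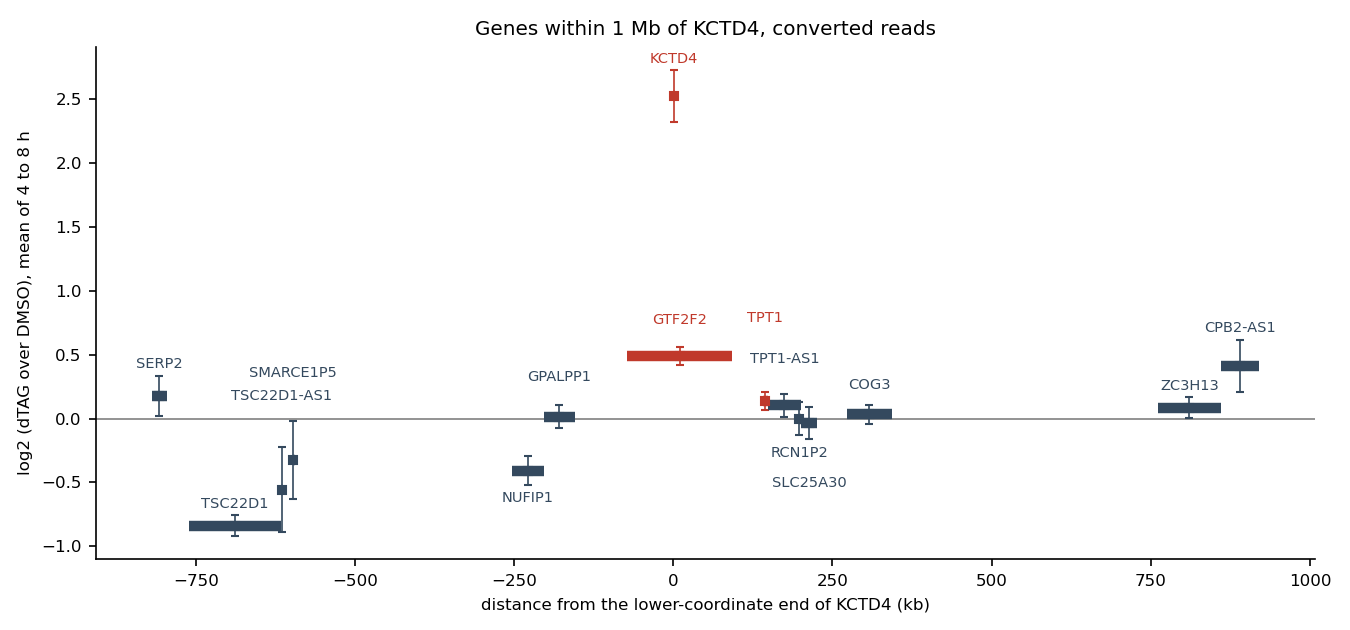
Log2 difference of dTAG over DMSO, averaged over 4, 6 and 8 h, for KCTD4, GTF2F2 and TPT1 (red) and the 12 further genes tested within 1 Mb, by distance from the lower-coordinate, 3′ end of KCTD4. Bars show each gene's extent and error bars the standard error. KCTD4 is at 2.53, GTF2F2 at 0.49 and TSC22D1 at -0.84.

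The relatives of each gene were followed through lists of their families. Of the KCTD family and related BTB proteins without KCTD4, 2 of 19 tested members rose in dTAG cells at 4 to 8 h, where 9.07% of all genes rose. They were TNFAIP1, an adaptor of a CUL3 ligase that acts on RhoA (0.56 ± 0.09, adjusted p = 1.91e-04), and BTBD10 (0.31 ± 0.09, adjusted p = 0.0171). The median of the list was 0.07, against 0.01 over all genes. Over 30 to 120 min of the mitosis series 1 of 20 rose, KCTD16 (1.02 ± 0.17, adjusted p = 4.55e-04), where 0.514% of all genes rose. KCTD16 and KCTD12, both auxiliary subunits of the GABA-B receptor, fell in dTAG cardiomyocytes (-0.46 ± 0.11, adjusted p = 0.0365, and -0.47 ± 0.12, adjusted p = 0.0463), 2 of 22 members, where 3.65% of all genes fell. KCTD12 also fell in dTAG neurons (-1.18 ± 0.15, adjusted p = 0.00123), 1 of 22 members, where 1.66% of all genes fell. In both derived cell types the markers of other cells moved with the drug as given above, and their part was not tested. These are all calls of the family in the dTAG comparisons averaged over times, the 120 min labels and the derived cells.

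Of 17 other general transcription factors of RNA polymerase II, 2 fell in dTAG cells at 4 to 8 h, where 10.7% of all genes fell, and the rest did not pass the test. They were ERCC2, the XPD helicase of TFIIH (-0.48 ± 0.15, adjusted p = 0.0355), and GTF2E1, a subunit of TFIIE (-0.34 ± 0.09, adjusted p = 0.00938). Of 11 RNA polymerase II subunits tested at these times 1 fell, against the same 10.7%, POLR2D, a stalk subunit (-0.36 ± 0.09, adjusted p = 0.00644). In cardiomyocytes 1 of 12 rose, POLR2A, the largest subunit (0.47 ± 0.09, adjusted p = 0.0102), where 1.18% of all genes rose. The part of the marker shifts given above for these cells was not tested. Of 16 further messengers of the translation machinery with a 5′ terminal oligopyrimidine tract, the class TPT1 belongs to, 1 fell at 4 to 8 h, again beside 10.7% of all genes, NAP1L1, a histone chaperone (-0.26 ± 0.07, adjusted p = 0.0171). The medians at 4 to 8 h were 0.00 for the transcription factors, -0.05 for the polymerase subunits and -0.08 for the oligopyrimidine messengers.

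The genes most like KCTD4 were sought by Pearson's r of mean log2 CPM over the 16 dTAG and DMSO groups of the mitosis series with 15 min of 4sU, among 15197 genes. The groups differ in depth and share their libraries between genes, so r is a description. The 5 highest were SBF2-AS1, a long noncoding RNA on chromosome 11 (0.962), HINT3, a histidine triad protein on chromosome 6 (0.915), BEND6, a BEN domain protein on chromosome 6 (0.901), ZNF792, a zinc finger protein on chromosome 19 (0.897), and CMAS, which activates sialic acid, on chromosome 12 (0.893). SBF2-AS1 was 1.78 ± 0.10 higher on the log2 scale in dTAG cells at 4 to 8 h. The others were 0.30 to 0.85 higher. The groups at 4 to 8 h are among the 16 over which these genes were chosen, so their differences there are not separate evidence. GTF2F2 stood 311th at 0.770, and TPT1 was at -0.356.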

How the data were processed

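Each deposited file lists, per the file headers, raw counts of converted reads and of all reads for every gene with a read, in 92 libraries; genes not listed were taken as 0. The files' conversion rate, a fraction per gene made by the authors, was not used here. Per the submitters' processing notes HISAT, Picard and HTSeq were used on hg38, with order, options and strand setting not given in the sources used here. From 49186 named genes, 281 of the Y chromosome or the X inactivation region were removed. Starts in the files count from 0, so 1 was added.

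Converted-read counts went into edgeR's quasi-likelihood test (two-sided, TMM, filterByExpr with at least 10 reads in enough libraries and 15 in all, Benjamini-Hochberg threshold 0.05). Fits were separate for 0 to 120 min, 4 to 8 h, the release series, the 120 min labels, the derived cells, and all libraries with 120 min of 4sU. CPM of converted reads were scaled within each fit, so levels are not compared across fits. CPM of all reads use the library total. KCTD4 passed the filter in each fit except that of the derived cells. A standard error is the log2 difference over the root of the F statistic. The scripts were tested on simulated data.

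The members and lists were chosen with earlier results of these data known. The naming rule took the 3 genes, called neighbours within 1 Mb, up to 3 called genes a list and the 5 genes most like KCTD4 (mean log2 CPM of at least 1, prior count 2). Replicate pairs differed beyond counting noise throughout. Replicate numbers paired dTAG with DMSO libraries in the mitosis series at 0, 90 and 120 min, in the release series at 120 min, and under both 120 min labels (each correlation of deviations over 0.1, from the data and not the labels). Drug comparisons with only 2 pairs were not called paired. Their correlations were 0.433 to 0.684 at 30 min of the mitosis series and 0.103, 0.330 and 0.294 at 4, 6 and 8 h. In neurons the correlation was 0.284 and in cardiomyocytes -0.430. Promoter windows came from RefSeq, GRCh38.p14, matching 3 of 3 genes. Alternatives were DESeq2's size factors and test, no filter, library sizes from all reads, all reads, converted relative to all reads of the gene, a replicate block and leaving out replicates. The R 4.3.3 packages were DESeq2 1.42.0, edgeR 4.0.16 and limma 3.58.1, and matplotlib 3.10.9, pandas 2.3.3 and numpy 2.4.6 ran under Python 3.11.15.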

Additional observations from a re-analysis of the deposited data

Results flagged for a closer look

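The members' values were examined for libraries far from the rest of their group, over 54 sets of 4 libraries, of which chance alone would mark about 1 in 20. TPT1 stood out in the third DMSO library at 120 min of the mitosis series, at 660 converted CPM and 1033 CPM of all reads, the library in which 10 genes held 13.5% of converted reads. TPT1 also stood out in the first DMSO library at 60 min, at 423 CPM of all reads and 3.29% of reads converted, and in the first dTAG library at 90 min, at 433 converted CPM. GTF2F2 stood out in the third dTAG library at 0 min, with 2.72% of its reads converted. The drug difference of GTF2F2 ran in opposite directions with arms that did not overlap. It was higher in dTAG cells at 4, 6 and 8 h (0.45, 0.33 and 0.70 on the log2 scale) and lower with 120 min of 4sU in the mitosis series (-0.39), in cardiomyocytes (-0.20) and in neurons (-0.14). The difference between these was not tested.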

How the results depend on the processing

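Values here are log2 differences recomputed under each alternative, of which 525 kept their direction and side of the threshold or moved by less than the spread between libraries, and the cause of each change below was not tested. With library sizes from all reads, the DMSO changes from 0 min were 1.93 for KCTD4 at 60 min and 0.92 and 0.71 for GTF2F2 at 90 and 120 min, all now past the threshold, and GTF2F2 rose by 0.67 between 30 and 120 min of the release series, where the median of all genes was shifted by 0.53. The same setting put neurons below cardiomyocytes by -0.57 for GTF2F2 and -0.48 for TPT1 (both past the threshold), cardiomyocytes against RPE-1 at -0.32 for GTF2F2 (no longer past it), and the drug differences at 0.073 for GTF2F2 in the release series and at -0.26 for GTF2F2 and -0.18 for TPT1 in neurons. With all reads, KCTD4 rose in DMSO cells by 1.23 at 60 min and 1.27 at 120 min, while TPT1 at 60 and 90 min (0.21 and 0.29) and in neurons against RPE-1 (-0.094) no longer passed. The drug differences in all reads were 0.32 for GTF2F2 at 4 to 8 h, 0.51 for KCTD4 in the release series, 1.06 for KCTD4 with 120 min of 4sU in that series and 0.013 for TPT1 with 120 min of 4sU in the mitosis series.

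In converted reads relative to all reads of the gene, the drug difference of KCTD4 was 0.41 at 30 to 120 min, 0.094 at 4 to 8 h, 0.45 in the release series, and 0.18 and 0.43 with 120 min of 4sU in the mitosis and release series. That of GTF2F2 was 0.051 at 4 to 8 h, 0.084 in the release series, -0.18 with 120 min of 4sU in the mitosis series and -0.094 in cardiomyocytes, and that of TPT1 at 4 to 8 h was -0.10. In DMSO cells GTF2F2 then differed from 0 min by 0.82, 1.27 and 1.11 at 60, 90 and 120 min and between 4 and 8 h by 0.46, the first and last with the sign turned. The median of all genes was shifted by 0.59, 0.37, 0.29 and 0.49 in these comparisons. TPT1 at 8 against 4 h and at 120 against 30 min of the release series (0.28 and 0.36, or 0.25 and 0.18 with library sizes from all reads) also turned sign without passing the test. TPT1 at 120 min then differed by 0.26 (not past the threshold). KCTD4 in cardiomyocytes against RPE-1 turned to 0.36, GTF2F2 there was -0.15 and TPT1 -0.44, and TPT1 in neurons against cardiomyocytes was -0.59. Without the filter TPT1 at 90 and 120 min was 0.54 and 0.53, with adjusted p of 0.0893 and 0.0911.

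Leaving out a replicate moved TPT1 between 0.41 and 0.55 (60 min), 0.37 and 0.53 (90 min), and 0.24 and 0.59 (120 min), where 0.29 was the lowest value when a replicate number left every group. It moved GTF2F2 between 0.37 and 0.62 for the drug at 4 to 8 h, between -0.35 and -0.076 for the drug in cardiomyocytes and between -0.79 and -0.58 in cardiomyocytes against RPE-1. It moved the 6 against 4 h difference between -0.95 and 1.07 for KCTD4 and between -0.32 and -0.040 for TPT1, neurons against RPE-1 for TPT1 between -0.63 and -0.37, and neurons against cardiomyocytes for KCTD4 between -6.11 and -5.30, fitted values that depend on the prior count. Calls over all genes, with their range over the alternatives, were 14 (0 to 95), 308 (2 to 1405) and 302 (5 to 5004) at 60, 90 and 120 min against 30 min of the DMSO release series, 163 (1 to 447) at 6 against 4 h, 7284 (2679 to 8576) in neurons against cardiomyocytes, 14523 (8393 to 17022) in cardiomyocytes against RPE-1 and 15452 (10848 to 18591) in neurons against RPE-1. At 30 min against 0 min of the mitosis series edgeR called 0 genes (up to 72 over the alternatives, DESeq2 among them, and 498 at an unadjusted p under 0.05), and at 60, 90 and 120 min the calls were 5103 (2979 to 6661), 3445 (2028 to 5480) and 3946 (2448 to 5869), and at 8 against 4 h 1942 (1436 to 6717). A replicate block left the drug differences of KCTD4 at 2.53 (4 to 8 h), 1.22 (30 to 120 min) and 0.89 (release series) and TPT1 at 0.61 at 60 min, and changed no call of the 3 genes. Low counts limit KCTD4, with 0 to 18 converted reads a library up to 120 min of the mitosis series.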
